A study of Mus musculus with 8 samples.

Results

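Endothelial cells line the inside of every blood and lymph vessel, and 39 genes that mark these cells or steer the growth of vessels were followed in the epididymal fat of mice, the visceral fat pad beside the testis. The genes were matched by symbol in the annotation of the array, a step that uses no signal: 70 of the 45101 probe sets carried the symbol of a member and no other symbol. The list of members itself was chosen with earlier results of these data known, so its counts may not be independent of them. All 39 members were among the 11232 genes, of 18193 with such a probe set, that passed a filter on dim signals, and 60 of the 70 probe sets passed it. Each gene is given by its brightest probe set.

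The study asked what a high-fat diet and 2 angiotensin receptor blockers do to gene expression in fat. RNA from 8 male C57BL/6J mice was hybridized to 1 oligonucleotide array each, with 2 mice in each of 4 groups. HFD+Tel mice and HFD+Can mice ate a high-fat diet with 30% of its calories from fat and drank water with telmisartan or candesartan, each at about 3 mg/kg/day. HFD mice ate the same diet without a drug, and chow mice ate a control diet with 10% of its calories from fat. The mice were 6 weeks old when bought, the diets ran for 24 weeks, and the drugs were given for the next 5 weeks. No source pairs mice between groups, and 2 mice in a group limit the precision of every value. An exact permutation test of 2 arrays against 2 cannot give a p under 0.333, so the tests below come from a limma model over all 11232 genes, in which a call means a p under 0.05 after Benjamini-Hochberg adjustment. Signals are on a linear scale after the arrays were brought to the same trimmed mean, and differences are on the log2 scale.

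Blood endothelium is held together by adhesion proteins such as VE-cadherin, and its growth is driven by vascular endothelial growth factors (VEGFs) that bind receptor tyrosine kinases on the cell surface. The angiopoietins and their TIE receptors then govern whether new vessels mature or loosen, Notch and ephrin signals set arterial against venous fate, and transcription factors of the ETS and SOX families keep the endothelial programme running. In fat, capillaries bring oxygen and fatty acids to the adipocytes, and capillary endothelium holds the anchor of lipoprotein lipase. All of the members were measured in these samples, and none of them was at the floor on any array, including the defining markers Pecam1, Cdh5, Tie1 and Kdr. In whole tissue, fewer endothelial cells and less RNA per endothelial cell cannot be told apart.

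Endothelial genes were lower in the fat of high-fat-fed mice. In HFD against chow, 12 of the 39 members fell and 0 rose, while 2.95% of all genes tested were called lower, 5.15% higher and 8.09% in either direction. The 12 were Sox7, Vegfa, Flt4, Tie1, Ecscr, Sox18, Notch4, Kdr, Emcn, Gpihbp1, Mmrn2 and Esam. The difference was below 0 for 35 members, against 51.5% of all genes, and the median member stood at −0.56, against −0.01 over all genes. Both HFD arrays lay below both chow arrays for 29 members and above them for 2, while 30.3% of all genes were separated downward and 27.8% upward.

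When the HFD+Tel, HFD+Can and HFD groups were averaged and set against chow, 22 members fell and 0 rose, while 5.88% of all genes were called lower and 7.59% higher. The 10 further genes were Pecam1, Cdh5, Egfl7, Ptprb, Clec14a, Rasip1, Tek, Erg, Dll4 and Efnb2. The median member stood at −0.59, and all 6 high-fat arrays lay below both chow arrays for 27 members, against 15.1% of all genes. Each drug group was also lower than chow: 14 members fell in HFD+Tel, where 3.48% of all genes were called lower and 4.96% higher, and 16 fell in HFD+Can, where 2.11% were called lower and 4.48% higher. These 4 comparisons share the same chow arrays. Members fell in all of them, and none rose in any.

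The counts depended on single mice. For each omission that lowered a count in this paragraph, the calls over all genes fell as well. In HFD against chow the count of 12 became 1 without HFD 1, 1 without HFD 2, 4 without chow 1 and 6 without either HFD+Can array. Over all genes, the calls of either direction in the same comparison numbered 182 without HFD 1 and 164 without HFD 2, against 909 with all arrays. In the mean of the high-fat groups the count of 22 became 9 without chow 1. Centring the arrays on their medians in place of the trimmed mean gave 7 members lower in HFD and 11 in the mean of the high-fat groups, where the calls over all genes were 728 higher and 245 lower, against 853 higher and 661 lower. Sox7 was the only member called in HFD against chow with every array left out in turn and at every other processing setting. In the mean of the high-fat groups Kdr, Flt4, Vegfa, Tie1, Sox7 and Notch4 were called in all of these.

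**Figure D1:**
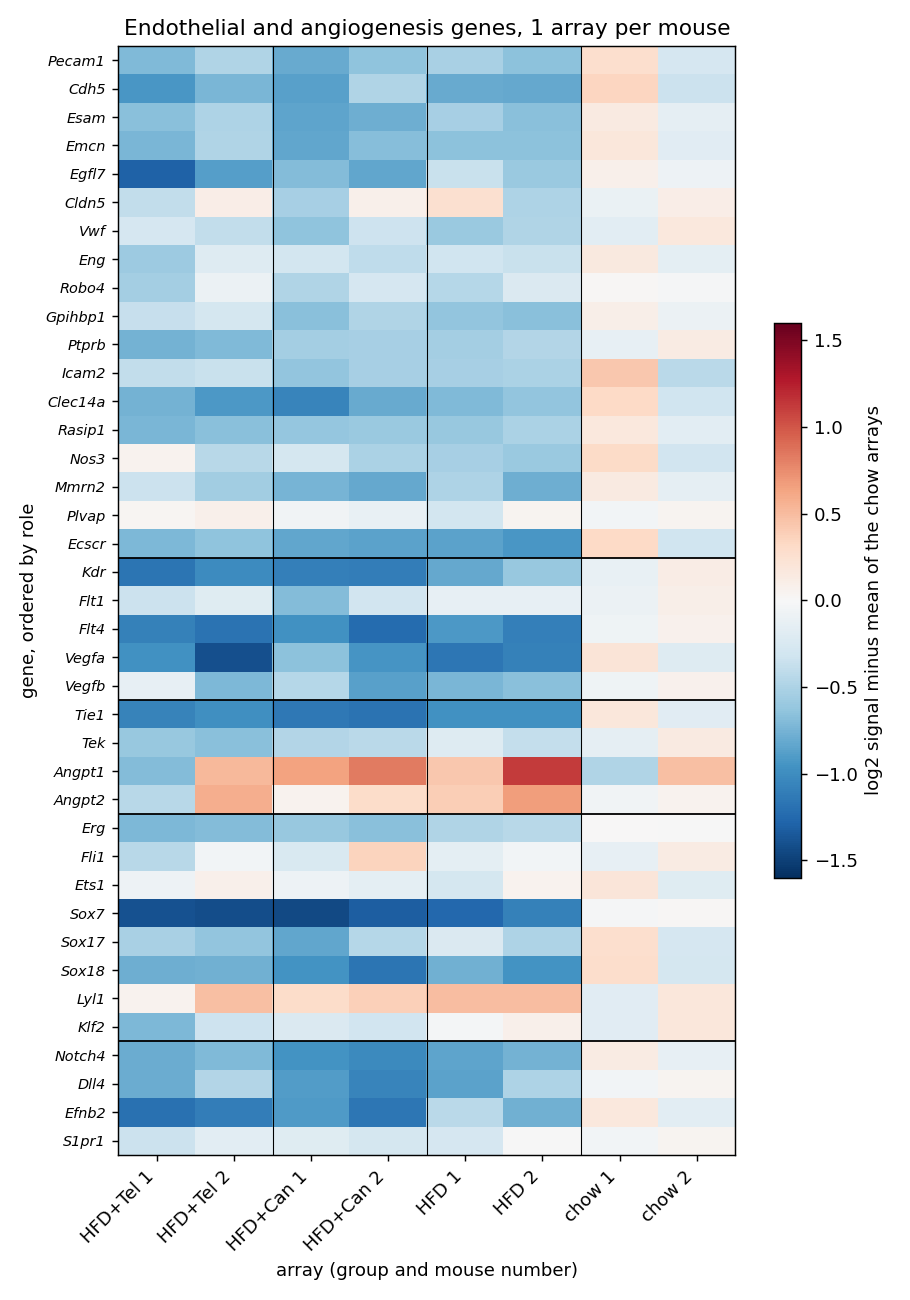
Log2 signal of each of the 39 members (rows, ordered by role) on each of the 8 arrays (columns), minus the mean of the 2 chow arrays. Blue is lower than chow and red is higher. The 6 high-fat arrays are blue for most members, deepest for Sox7, whose group mean differed from chow by −1.40 in HFD+Tel, −1.38 in HFD+Can and −1.17 in HFD, and red for Lyl1.

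Adhesion, surface and capillary genes made up 18 of the members. Of these, 5 fell in HFD against chow and 11 in the mean of the high-fat groups, and all 18 differences were below 0 in both. Pecam1, which encodes the adhesion molecule CD31 at endothelial contacts, had a signal of 664 and 773 on the HFD+Tel arrays, 616 and 691 on the HFD+Can arrays and 756 and 687 on the HFD arrays, against 1295 and 899 on the chow arrays. The high-fat arrays all lay below the chow arrays, although the chow mice differed between themselves. The difference was −0.58 in HFD (95% CI −1.01 to −0.15, adjusted p = 0.0996), which was not called, and −0.63 in the mean of the high-fat groups (95% CI −0.98 to −0.28, adjusted p = 0.0288), which was. Cdh5, which encodes VE-cadherin, the adhesion protein of endothelial junctions, read 324 and 369 on the HFD+Tel arrays, 337 and 441 on the HFD+Can arrays and 353 and 350.0 on the HFD arrays, against 778 and 486 on the chow arrays. It too was separated on every array, with a mean of 351 ± 1.79 in HFD and 632 ± 207 in chow (SD, n = 2 each). Its difference was −0.81 in HFD (adjusted p = 0.0714) and −0.77 in the mean of the high-fat groups (adjusted p = 0.0302).

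Esam, an adhesion molecule of endothelial tight junctions, gave 1161 and 1318 on the HFD+Tel arrays, 1032 and 1076 on the HFD+Can arrays and 1282 and 1169.6 on the HFD arrays, against 2042 and 1683 on the chow arrays. It fell in HFD by 0.60 (95% CI −0.92 to −0.28, adjusted p = 0.0384), a signal 1.51-fold lower than in chow. Emcn encodes endomucin, a sialoglycoprotein of capillary and venous endothelium, and read 416 and 494 on the HFD+Tel arrays, 387 and 429 on the HFD+Can arrays and 437 and 436 on the HFD arrays, against 782 and 608 on the chow arrays. The arrays did not overlap, and the HFD difference was −0.66 (adjusted p = 0.0483). Mmrn2, an extracellular matrix protein of endothelial cells, read 903 and 783 on the HFD+Tel arrays, 686 and 651 on the HFD+Can arrays and 815 and 671 on the HFD arrays, against 1269 and 1043 on the chow arrays. Again no high-fat array reached a chow array, and the HFD difference was −0.64 (adjusted p = 0.0468). Mmrn2 had 3 further probe sets past the filter, and they gave −0.63, −0.73 and −1.32. Ecscr, an endothelial surface protein linked to cell migration, showed 319.7 and 335 on the HFD+Tel arrays, 295 and 291 on the HFD+Can arrays and 288 and 275 on the HFD arrays, against 652 and 422 on the chow arrays. Its HFD signal was 1.86-fold lower than in chow, a difference of −0.90 (95% CI −1.36 to −0.44, adjusted p = 0.0323).

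Gpihbp1 encodes the capillary protein that binds lipoprotein lipase and carries it to the vessel lumen. Its signal was 2389.9 and 2539 on the HFD+Tel arrays, 1946 and 2205 on the HFD+Can arrays and 1997 and 1943 on the HFD arrays, against 3304 and 2890.0 on the chow arrays. The HFD arrays were among the lowest and the HFD+Tel arrays the highest of the high-fat arrays, all below chow. Gpihbp1 fell in HFD by 0.65 (95% CI −0.93 to −0.37, adjusted p = 0.0175), and its difference from chow was −0.33 in HFD+Tel (adjusted p = 0.144) and −0.58 in HFD+Can (adjusted p = 0.0301).

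The other capillary genes called in the mean of the high-fat groups were Egfl7, Ptprb, Clec14a and Rasip1. Egfl7, a secreted endothelial protein that guides vessel tube formation, had signals of 441 and 587 on the HFD+Tel arrays, 667 and 607 on the HFD+Can arrays and 843 and 714 on the HFD arrays, against 1143 and 1018 on the chow arrays. The order of the groups was the same on all arrays, with HFD+Tel lowest and chow highest, and the difference was −0.77 in the mean of the high-fat groups (adjusted p = 0.00963). Of its 4 probe sets past the filter, 1 stood at 0.01 in HFD against chow while the other 3 were below 0, and that one and another, at −0.39 and −0.52, were not called in the mean of the high-fat groups (adjusted p over probe sets = 0.462 and 0.158). Ptprb encodes VE-PTP, the phosphatase of VE-cadherin and of the TIE receptors, and read 906 and 935 on the HFD+Tel arrays, 1044 and 1060.4 on the HFD+Can arrays and 1045 and 1103 on the HFD arrays, against 1394 and 1674 on the chow arrays. Its arrays did not overlap either. In HFD its difference of −0.51 had an adjusted p of 0.0502, just above the threshold of 0.05, and in the mean of the high-fat groups it was −0.59 (adjusted p = 0.00909). A second probe set of Ptprb was called in HFD, at −0.60 (adjusted p over probe sets = 0.0235). Clec14a, a C-type lectin of the endothelial surface, read 125 and 111 on the HFD+Tel arrays, 101 and 119.8 on the HFD+Can arrays and 129 and 136 on the HFD arrays, against 262 and 169 on the chow arrays. It was 1.75-fold lower in the mean of the high-fat groups than in chow (adjusted p = 0.0264). Rasip1, a Ras-interacting protein needed for vessel lumens, read 188 and 197 on the HFD+Tel arrays, 203 and 208 on the HFD+Can arrays and 206 and 219.9 on the HFD arrays, against 353 and 278 on the chow arrays. The high-fat arrays lay close together and below chow, with a difference of −0.62 (adjusted p = 0.0183).

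Nos3 encodes endothelial nitric oxide synthase, which makes the vasodilator nitric oxide. Its signal was 1255 and 882 on the HFD+Tel arrays, 989.7 and 850.4 on the HFD+Can arrays and 832 and 799.7 on the HFD arrays, against 1482 and 976 on the chow arrays. An array of each drug group lay above the lower chow array, so these groups overlapped with chow, while both HFD arrays lay below it. The difference was −0.56 in HFD (95% CI −1.08 to −0.04, adjusted p = 0.179) and −0.38 in the mean of the high-fat groups, and neither was called. The 6 remaining genes of this role, Cldn5, Vwf, Eng, Robo4, Icam2 and Plvap, were not called in HFD or in the mean of the high-fat groups, where their differences ran from −0.49 for Icam2 to −0.05 for Plvap. Plvap, which forms the diaphragms of fenestrae and caveolae, read 799.6 and 823 on the HFD+Tel arrays, 746 and 717 on the HFD+Can arrays and 635 and 807 on the HFD arrays, against 755 and 804 on the chow arrays. Its arrays overlapped in HFD against chow, and the sign of its difference turned without HFD 1. A second probe set of Eng, the TGF-beta co-receptor endoglin, stood at −0.84 in HFD and was called with p adjusted over probe sets (0.029), while the brighter probe set stood at −0.34. In the mean of the high-fat groups they stood at −0.89 (adjusted p over probe sets = 0.00631) and −0.36.

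**Figure D2:**
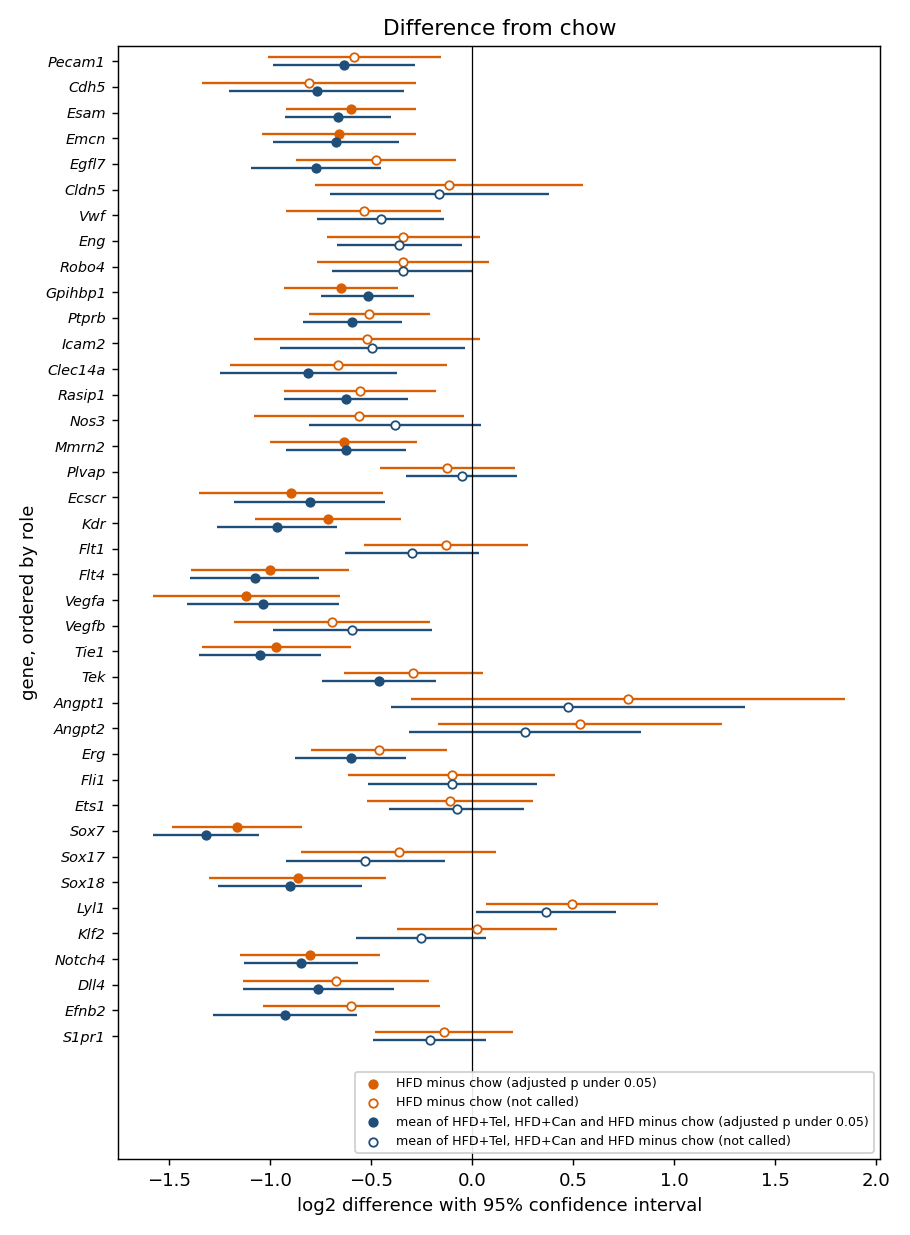
Log2 difference from chow with its 95% confidence interval for each of the 39 members, for HFD (orange) and for the mean of HFD+Tel, HFD+Can and HFD (blue). Filled points have an adjusted p under 0.05 over all genes, 12 for HFD and 22 for the mean, and all filled points lie below 0.

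The VEGF axis holds ligands and 3 receptors among the members. Vegfa encodes VEGF-A, the main growth factor of blood endothelium, which adipocytes and other cells secrete. Vegfa read 507 and 375 on the HFD+Tel arrays, 632 and 517 on the HFD+Can arrays and 445 and 469.6 on the HFD arrays, against 1144 and 862 on the chow arrays. The 6 high-fat arrays all lay below the chow arrays, and the HFD mean was 457 ± 17.2 against 1003 ± 199.8 in chow (SD, n = 2 each). Vegfa fell in HFD by 1.12 (95% CI −1.58 to −0.66, adjusted p = 0.0146), a 2.17-fold lower signal. Its second probe set past the filter gave −0.53 and was not called (adjusted p over probe sets = 0.35). Vegfb, a ligand that binds Flt1 but not Kdr, read 870.0 and 582 on the HFD+Tel arrays, 700.0 and 525 on the HFD+Can arrays and 578 and 603 on the HFD arrays, against 909 and 1006 on the chow arrays. Every high-fat array lay below both chow arrays, but the differences of −0.69 in HFD (adjusted p = 0.0853) and −0.59 in the mean of the high-fat groups (adjusted p = 0.0569) were not called.

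Kdr and Flt4 passed the test among the receptors of this axis, and Flt1 did not on its brightest probe set. Kdr, the receptor that carries most of the VEGF-A signal, had signals of 208 and 231 on the HFD+Tel arrays, 219 and 217 on the HFD+Can arrays and 264 and 306 on the HFD arrays, against 428 and 508 on the chow arrays. The drug groups were lower than HFD and HFD was lower than chow on every array. Kdr fell in HFD by 0.72 (95% CI −1.08 to −0.35, adjusted p = 0.0314) and in the mean of the high-fat groups by 0.97 (adjusted p = 0.00243). Flt4, the receptor for VEGF-C and VEGF-D that is best known from lymphatic endothelium, read 148 and 137 on the HFD+Tel arrays, 159.5 and 133 on the HFD+Can arrays and 165 and 147 on the HFD arrays, against 298 and 327 on the chow arrays. Its HFD signal was 2.00-fold lower than in chow, a difference of −1.0 (95% CI −1.39 to −0.61, adjusted p = 0.0113). Flt1, a receptor that binds VEGF-A tightly but signals weakly and so acts in part as a decoy, read 201 and 223 on the HFD+Tel arrays, 158 and 206 on the HFD+Can arrays and 233 and 233 on the HFD arrays, against 239.5 and 271 on the chow arrays. The high-fat arrays all lay below the chow arrays, the HFD arrays only just. Flt1 was called neither in HFD, at −0.13 (95% CI −0.53 to 0.28, adjusted p = 0.71), nor in the mean of the high-fat groups, at −0.30 (adjusted p = 0.216). Its 3 further probe sets past the filter were also below 0, at −0.43, −0.08 and −0.08 in HFD and −0.65, −0.26 and −0.37 in the mean of the high-fat groups, and the first of them was called in the mean (adjusted p over probe sets = 0.0431).

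Of the TIE receptors and angiopoietins, both receptors fell in the mean of the high-fat groups and neither ligand was called. Tie1, an orphan receptor of endothelial cells that modulates Tek, read 211 and 225 on the HFD+Tel arrays, 201 and 195 on the HFD+Can arrays and 227 and 226 on the HFD arrays, against 501 and 393 on the chow arrays. The highest of the high-fat arrays lay well below the lower chow array, and Tie1 fell in HFD by 0.97 (95% CI −1.34 to −0.60, adjusted p = 0.0104), or 1.96-fold. Tek encodes TIE2, the receptor of both angiopoietins, and read 347 and 334 on the HFD+Tel arrays, 383 and 392 on the HFD+Can arrays and 459.8 and 407 on the HFD arrays, against 478 and 586 on the chow arrays. The HFD arrays came close to the lower chow array. The difference was −0.29 in HFD (adjusted p = 0.284), not called, and −0.46 in the mean of the high-fat groups (adjusted p = 0.0421), called. Angpt2, a ligand that antagonizes Tek in many settings and loosens vessels, read 98.1 and 200.1 on the HFD+Tel arrays, 138 and 164 on the HFD+Can arrays and 175 and 212 on the HFD arrays, against 128 and 139 on the chow arrays. Both HFD arrays lay above chow, the HFD+Tel arrays lay on either side of it, and neither the HFD difference of 0.53 (95% CI −0.17 to 1.24) nor the mean of 0.26 was called (adjusted p = 0.334 and 0.546). Angpt1, the agonist of Tek made by perivascular cells, had the widest interval of the members: 0.77 in HFD (95% CI −0.30 to 1.85), with signals that overlapped between HFD and chow.

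**Figure D3:**
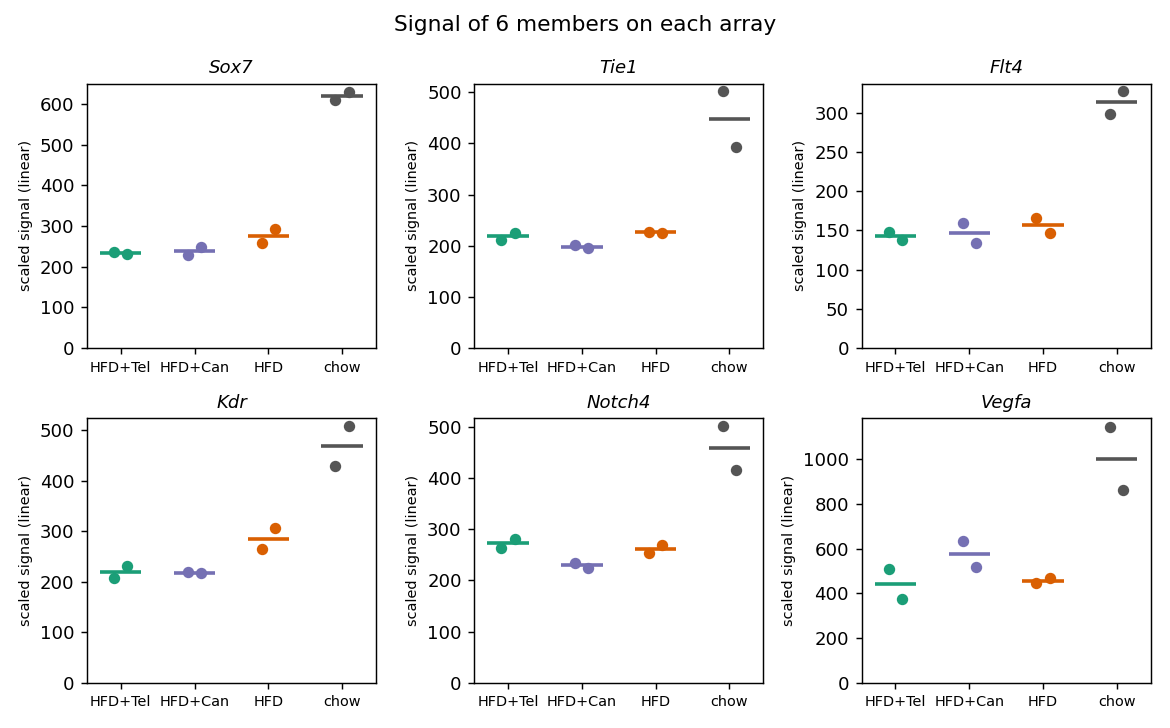
Linear scaled signal of Sox7, Tie1, Flt4, Kdr, Notch4 and Vegfa, the 6 members called in the mean of the high-fat groups at every setting, with 1 point per mouse and a line at the group mean. Every point of HFD+Tel, HFD+Can and HFD lies below both chow points in all 6 panels.

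Transcription factors were split. Sox7, Sox17 and Sox18 form the SOXF group, which acts in endothelial and arterial specification. Sox7 had the largest fall of the members in HFD, with 236 and 233 on the HFD+Tel arrays, 228 and 248 on the HFD+Can arrays and 259.6 and 293 on the HFD arrays, against 609.7 and 630.1 on the chow arrays. The chow mice were close together and the high-fat mice were far below them. Sox7 fell in HFD by 1.17 (95% CI −1.49 to −0.85, adjusted p = 0.00248) and in the mean of the high-fat groups by 1.32 (adjusted p = 0.000339), a 2.49-fold lower signal. Sox18, which is needed for lymphatic and blood vessel development, read 855 and 869 on the HFD+Tel arrays, 758 and 656 on the HFD+Can arrays and 865 and 759 on the HFD arrays, against 1796 and 1211 on the chow arrays. No high-fat array overlapped chow, and the HFD difference was −0.86 (95% CI −1.30 to −0.43, adjusted p = 0.0311). Sox17, the third of the group, was at −0.36 in HFD (adjusted p = 0.337) and −0.53 in the mean of the high-fat groups (adjusted p = 0.0798), and was not called.

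Among the ETS factors, Erg, which maintains the endothelial programme, read 154 and 156 on the HFD+Tel arrays, 166 and 159 on the HFD+Can arrays and 182 and 185 on the HFD arrays, against 255 and 251 on the chow arrays. The groups were separated on all arrays, and Erg was called in the mean of the high-fat groups at −0.60 (95% CI −0.88 to −0.33, adjusted p = 0.0139) but not in HFD at −0.46 (adjusted p = 0.0974). Fli1 and Ets1, which blood cells express as well as endothelium, were not called. In the mean of the high-fat groups they stood at −0.10 (95% CI −0.52 to 0.32) and −0.08 (95% CI −0.41 to 0.26). Their probe sets disagreed in sign in HFD against chow. Both turned their sign in the mean when some single arrays were left out. Lyl1, a basic helix-loop-helix factor of endothelial and blood-forming cells, read 269 and 359 on the HFD+Tel arrays, 316 and 336 on the HFD+Can arrays and 363 and 364 on the HFD arrays, against 229 and 292 on the chow arrays. Lyl1 was above 0 at 0.49 in HFD (95% CI 0.07 to 0.92, adjusted p = 0.149), not called. Klf2, which blood flow induces in endothelium, was close to 0 at 0.02 in HFD and was not called, with a sign that turned under median centring and without chow 1 or HFD 2.

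Among the Notch, ephrin and sphingosine genes, Notch4, the Notch receptor found mainly on endothelial cells, read 264 and 281 on the HFD+Tel arrays, 234 and 225 on the HFD+Can arrays and 254 and 269.8 on the HFD arrays, against 502 and 415 on the chow arrays. The high-fat arrays all lay below chow. Notch4 fell in HFD by 0.80 (95% CI −1.15 to −0.46, adjusted p = 0.0175), or 1.74-fold. Dll4, the Notch ligand of arterial and tip cells, read 124 and 156 on the HFD+Tel arrays, 116 and 104 on the HFD+Can arrays and 119.5 and 153 on the HFD arrays, against 210.0 and 221 on the chow arrays. Efnb2, the ephrin of arterial endothelium, read 153 and 163 on the HFD+Tel arrays, 187 and 158 on the HFD+Can arrays and 261 and 207 on the HFD arrays, against 395 and 313 on the chow arrays. Both were separated from chow on all arrays and were called in the mean of the high-fat groups, at −0.76 (adjusted p = 0.0184) and −0.93 (adjusted p = 0.007), but not in HFD, at −0.68 (adjusted p = 0.0795) and −0.60 (adjusted p = 0.0977). S1pr1, the sphingosine phosphate receptor that tightens the endothelial barrier, stood at −0.21 in the mean of the high-fat groups and was not called.

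Promoter sequence was examined for ETS motifs, since ETS factors such as Erg bind many endothelial genes. RefSeq promoters (GRCm38.p6) were matched for 20 of the 39 members, with 25 listed starts, each covering 250 bases before the start and 50 after it. The letters CCGGAA or AGGAAG were searched in the 250 bases before the start only, on either strand and with overlaps allowed. They occurred in 12 of these 25 promoters (48.0%) and in 38.2% of all 32851 promoters. Of the 18 promoters of members called in the mean of the high-fat groups, 8 (44.4%) held them. The SOX letters ACAATG or ACAAAG occurred in the same 250 bases in 5 of 25 (20%), against 25.2% of all promoters. Of the 18 promoters of called members, 4 (22.2%) held the SOX letters. The 250 bases before the start are shown for Tie1, Flt4 and Notch4, 5′ to 3′ along the gene with ETS letters in capitals. These genes were among the members that fell in every high-fat group. The Tie1 stretch (chr4:118489850-118490099, minus strand) holds 1 match, the Flt4 stretch (chr11:49609429-49609678, plus strand) holds 0 and the Notch4 stretch (chr17:34564045-34564294, plus strand) holds 3. A match describes the letters in this window and nothing of the binding of a factor.
Tie1: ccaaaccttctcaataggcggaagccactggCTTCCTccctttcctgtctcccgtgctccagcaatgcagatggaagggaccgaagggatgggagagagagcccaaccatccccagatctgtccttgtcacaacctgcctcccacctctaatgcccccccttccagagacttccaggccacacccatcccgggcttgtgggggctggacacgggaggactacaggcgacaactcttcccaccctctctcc
Flt4: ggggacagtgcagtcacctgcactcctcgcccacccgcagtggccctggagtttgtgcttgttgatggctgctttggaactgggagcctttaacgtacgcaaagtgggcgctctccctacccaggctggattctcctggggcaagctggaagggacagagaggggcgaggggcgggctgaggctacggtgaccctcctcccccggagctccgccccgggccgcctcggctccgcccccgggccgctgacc
Notch4: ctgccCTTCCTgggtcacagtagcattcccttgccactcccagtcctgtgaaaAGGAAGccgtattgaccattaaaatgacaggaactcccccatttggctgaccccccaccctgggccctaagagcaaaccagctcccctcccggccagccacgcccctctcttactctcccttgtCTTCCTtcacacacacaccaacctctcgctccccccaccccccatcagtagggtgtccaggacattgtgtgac

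Other genes of the same pathways did not all follow the members. Of 12 further VEGF family genes, co-receptors and matrix inhibitors, 11 were tested, and 3 rose in HFD against chow and 0 fell. Thbs2, a thrombospondin that inhibits vessel growth, read 342 and 482 on the HFD+Tel arrays, 469 and 499 on the HFD+Can arrays and 537 and 722 on the HFD arrays, against 196 and 322 on the chow arrays (1.31 in HFD, adjusted p = 0.0228). Serpinf1, the secreted angiogenesis inhibitor PEDF, was at 0.68 (adjusted p = 0.0156), and Hif1a, the oxygen-regulated factor that induces Vegfa in hypoxia, was at 0.55 (adjusted p = 0.0285). Of 14 tested partners of the Notch, ephrin and sphingosine pathways, 3 fell and 0 rose. Ephb4, the venous receptor of Efnb2, was at −0.98 (adjusted p = 0.023), Thbd, the anticoagulant thrombomodulin of the endothelial surface, was at −1.32 (adjusted p = 0.0251), and Notch1 was at −0.58 (adjusted p = 0.04). Of 22 tested further endothelial genes, 3 fell in HFD and 0 rose: Gja4, an arterial gap junction protein, at −0.79, She at −0.78 and Myct1 at −0.83 (adjusted p = 0.0438, 0.0299 and 0.0299). In the mean of the high-fat groups 8 of these 22 and 8 of the 14 Notch, ephrin and sphingosine partners fell. The lists had medians of 0.35, −0.47 and −0.34 in HFD against chow, beside −0.56 for the members.

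Markers of other cell types moved on the same arrays. Of 13 macrophage markers, 12 rose and 0 fell in HFD against chow. Their summed signal was 45093 and 64291 on the HFD+Tel arrays, 49455 and 57819.6 on the HFD+Can arrays and 52895 and 54934 on the HFD arrays, against 21068 and 24089.9 on the chow arrays. Cd68, a lysosomal macrophage protein, read 4386 and 6415 on the HFD+Tel arrays, 4675 and 6039 on the HFD+Can arrays and 5401 and 5840.5 on the HFD arrays, against 1106 and 1089 on the chow arrays. With it, the smallest p were those of Itgax, the integrin CD11c, at 3.10, of Cd84, a leukocyte surface receptor, at 2.94, and of Ctss, a lysosomal protease, at 1.85, beside 2.36 for Cd68. Of 11 tested pericyte and smooth muscle markers 0 were called in HFD, and 4 fell in the mean of the high-fat groups (Rgs5, Myh11, Notch3 and Kcnj8). Beside −0.56 and −0.59 for the members, the median of these markers was −0.53 in HFD and −0.57 in the mean. Their summed signal was 13365 and 10321 on the HFD+Tel arrays, 11600.0 and 10449 on the HFD+Can arrays and 11692 and 11587 on the HFD arrays, against 15587 and 15868 on the chow arrays. Of 5 lymphatic markers, 3 were tested and 2 fell in HFD. Lyve1, a hyaluronan receptor that some macrophages also carry, fell by 1.52 and Reln by 1.77 (adjusted p = 0.0104 and 0.025). Pdpn, a glycoprotein that other stromal cells carry too, was higher on both HFD arrays than on chow but not called, at 0.22 (adjusted p = 0.469). Prox1 and Ccl21a were not among the genes tested. Of 10 tested adipocyte markers 2 fell, the glucose transporter gene Slc2a4 by 1.70 and Pparg, the master regulator of adipocytes, by 0.81, and the summed signal of the list was 116071 and 101112 on the HFD+Tel arrays, 105818 and 95895 on the HFD+Can arrays and 94825 and 99778 on the HFD arrays, against 99863 and 111847 on the chow arrays. No tested marker of these 4 lists was at 0. The summed signal of the 39 members was 20229 and 21515 on the HFD+Tel arrays, 19571 and 20288 on the HFD+Can arrays and 21311 and 20744 on the HFD arrays, against 31652 and 28013 on the chow arrays. The part of macrophage and other cells in the lower endothelial signals was not tested.

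**Figure D4:**
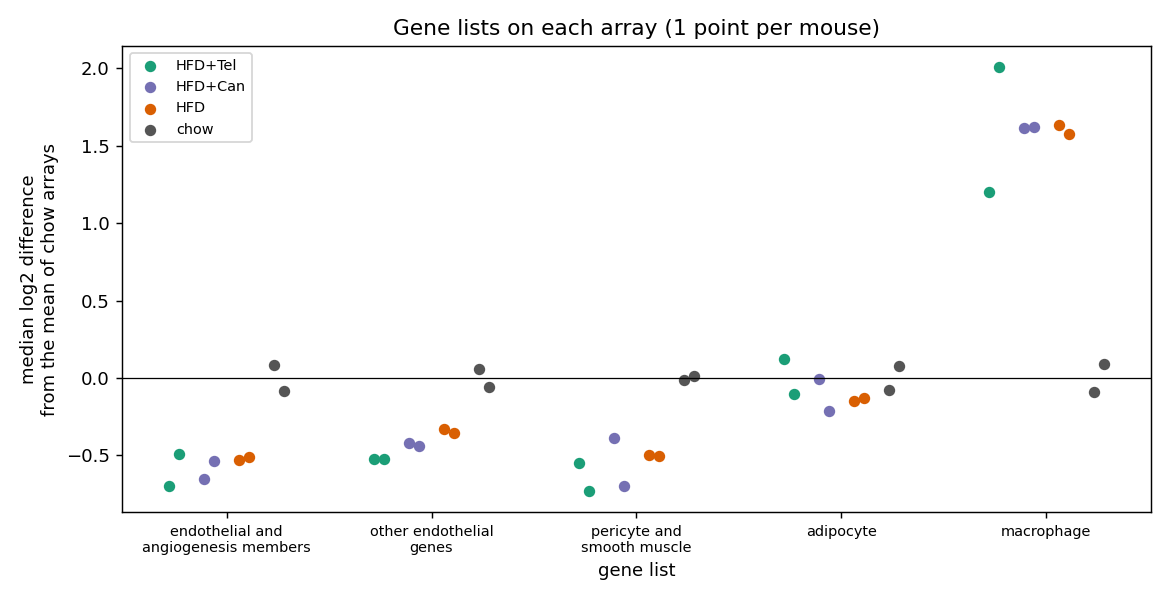
Median log2 difference from the mean of the chow arrays over the genes of 5 lists, 1 point per mouse. The members lie at −0.70 and −0.49 in HFD+Tel, −0.65 and −0.54 in HFD+Can and −0.53 and −0.51 in HFD, against 0.08 and −0.08 in chow, while the macrophage list lies at 1.2 to 2.01 in the high-fat groups.

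Neither drug changed a member past the threshold relative to untreated HFD. Telmisartan and candesartan both block the angiotensin II type 1 receptor and share a biphenyl-methyl-benzimidazole core. Telmisartan carries a carboxylic acid on the biphenyl and an additional benzimidazole ring, whereas candesartan carries a tetrazole on the biphenyl and a carboxylic acid on its benzimidazole. They were given at the same stated dose for the same time. In HFD+Tel against HFD, 0 of 39 members were called, as 0% of all genes were. At an unadjusted p under 0.05, 5 members were lower and 1 was higher, while 3.92% and 2.28% of all genes were. The median member differed by −0.05, with 24 members below 0, but its sign depended on the setting: it was 0.22 under median centring, with 7 below 0, and 0.05 without HFD+Tel 1, with 19 below 0.

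The 3 members with the smallest p in that comparison, none of which passed, were Egfl7, Klf2 and Efnb2. Egfl7 read 441 and 587 on the HFD+Tel arrays against 843 and 714 on the HFD arrays, a difference of −0.61 (95% CI −1.0 to −0.21, adjusted p = 0.766). Klf2 read 711 and 929.7 on the HFD+Tel arrays against 1143 and 1229 on the HFD arrays, a difference of −0.54 (95% CI −0.94 to −0.15, adjusted p = 0.766). Efnb2 read 153 and 163 on the HFD+Tel arrays against 261 and 207 on the HFD arrays, a difference of −0.55 (95% CI −0.99 to −0.12, adjusted p = 0.766). For each of the 3 the HFD+Tel arrays lay below the HFD arrays. Gpihbp1 was the member above 0 at the unadjusted threshold, at 0.32 (95% CI 0.04 to 0.60, adjusted p = 0.766). Kdr was at −0.37, Tek at −0.35, Nos3 at 0.37 and Angpt2 at −0.46. The remaining always-named members, Pecam1, Cdh5, Flt1, Tie1 and Vegfa, lay between −0.14 and −0.01. All 5 of these turned their sign under median centring, as did 17 of the 39 members, and Angpt2 turned its sign without HFD+Tel 1.

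In HFD+Can against HFD, 0 of 39 members were called, as 0% of all genes were, and at an unadjusted p under 0.05, 1 member was lower and 0 were higher, while 0.766% and 0.481% of all genes were. Kdr was that member. It read 219 and 217 on the HFD+Can arrays against 264 and 306 on the HFD arrays, a difference of −0.38 (95% CI −0.74 to −0.02, adjusted p = 1.0). Efnb2 read 187 and 158 on the HFD+Can arrays against 261 and 207 on the HFD arrays (−0.43, 95% CI −0.87 to 0.01), and Flt1 read 158 and 206 on the HFD+Can arrays against 233 and 233 on the HFD arrays (−0.37, 95% CI −0.78 to 0.03). In each of these the HFD+Can arrays lay below the HFD arrays. Vegfa stood at 0.32 (95% CI −0.14 to 0.78), with both HFD+Can arrays above both HFD arrays. The median member differed by −0.11, with 30 members below 0, and by 0.04 under median centring, with 17 below 0. Both drug comparisons use the same HFD arrays.

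**Figure D5:**
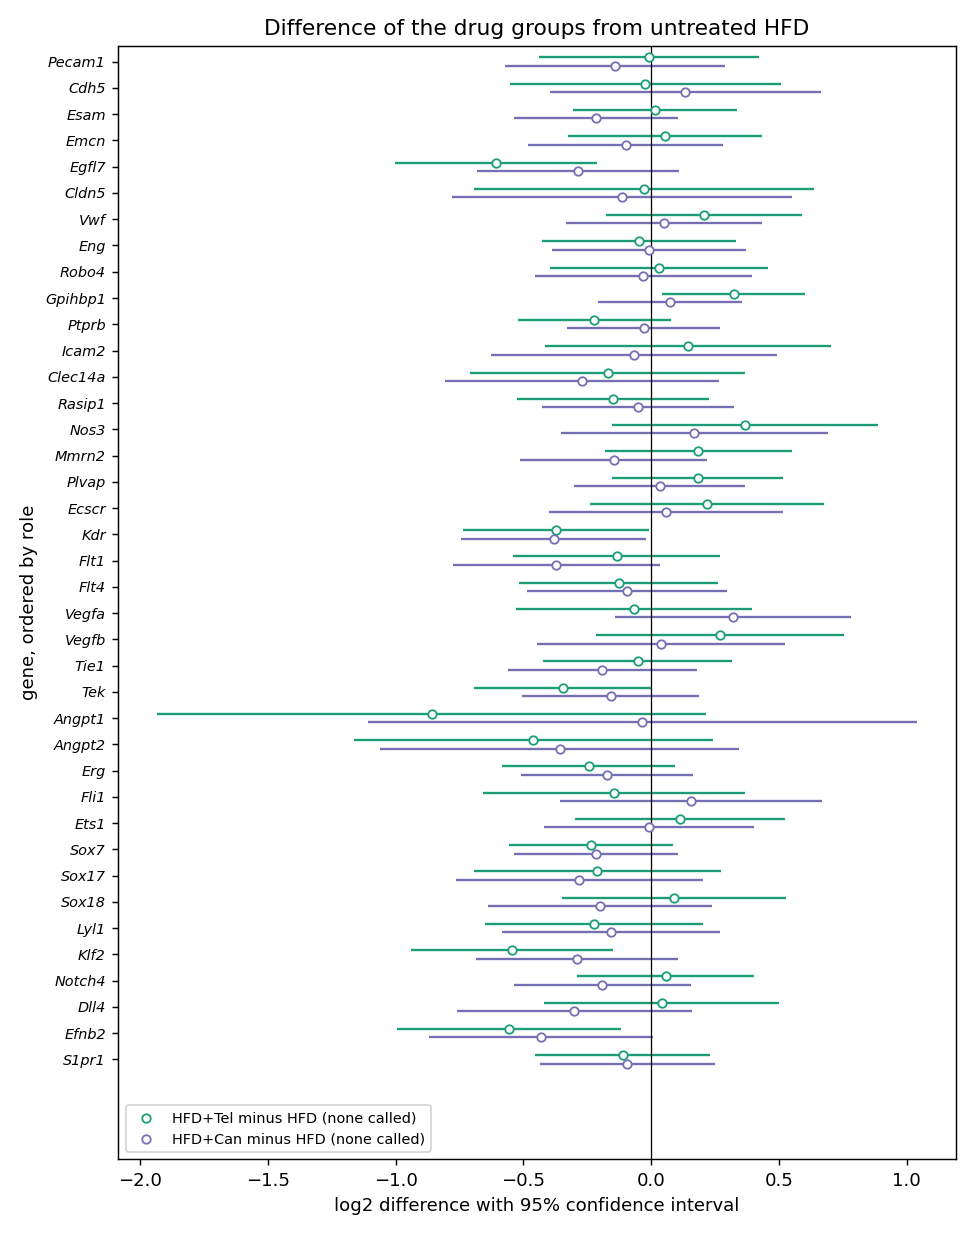
Log2 difference from untreated HFD with its 95% confidence interval for each of the 39 members, for HFD+Tel (green) and HFD+Can (violet). All points are open because no member passed an adjusted p under 0.05, and the interval of most members includes 0.

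The drugs were also set against each other at their common dose, over all 39 members with p adjusted over all genes. In HFD+Tel against HFD+Can 0 members were called, as 0% of all genes were, and 0 had an unadjusted p under 0.05, while 4.9% of all genes did. Mmrn2 read 903 and 783 on the HFD+Tel arrays against 686 and 651 on the HFD+Can arrays, a difference of 0.33 (95% CI −0.03 to 0.70, adjusted p = 0.924). Gpihbp1 read 2389.9 and 2539 on the HFD+Tel arrays against 1946 and 2205 on the HFD+Can arrays, a difference of 0.25 (95% CI −0.03 to 0.53, adjusted p = 0.924). Vegfa read 507 and 375 on the HFD+Tel arrays against 632 and 517 on the HFD+Can arrays, a difference of −0.39 (95% CI −0.85 to 0.07, adjusted p = 0.924). These 3 had the smallest p, and in each the arrays of the 2 drugs did not overlap. Such separation is common, since a random order of 2 against 2 arrays gives no overlap in 33.3% of cases. Of the receptors, Kdr differed by 0.01 (95% CI −0.35 to 0.37), Flt1 by 0.24 (95% CI −0.17 to 0.64), Tie1 by 0.14 (95% CI −0.23 to 0.51) and Tek by −0.19 (95% CI −0.53 to 0.16). The sign for Kdr turned without HFD+Tel 2, and that for Flt1 turned with the mean of its probe sets. The intervals of the members reached a median of 0.41 to each side on the log2 scale. They rest on a spread pooled over the 2 mice in each of the 4 groups and moderated over all genes. A p that misses the threshold does not show that the drugs act alike.

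Set against chow, the leading members had the following differences in the drug groups. Sox7 differed from chow by −1.40 in HFD+Tel and −1.38 in HFD+Can, Tie1 by −1.02 and −1.16, and Kdr by −1.09 and −1.10, all called in both groups. Sox7 was called in both at every other setting. In HFD+Can, Kdr was no longer called without HFD+Can 1 (adjusted p = 0.0519) or HFD+Can 2 (adjusted p = 0.0785), nor Tie1 without HFD+Can 2 (adjusted p = 0.0725). In HFD+Tel, neither was called when only the compared groups were fitted (adjusted p = 0.054 for Kdr and 0.0693 for Tie1). Vegfa was called in HFD+Tel at −1.19 (adjusted p = 0.0106, but 0.068 under median centring, 0.0753 without the filter, 0.0646 with only the compared groups fitted and 0.0837 with the mean of its probe sets) and not in HFD+Can at −0.80 (adjusted p = 0.0539), and the difference between the drug groups was not called. No member was called higher than chow in either drug group.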

How the data were processed

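The authors deposited 1 table with a linear signal intensity for each of 45101 probe sets on each of 8 arrays, made with the GeneChip Analysis Suite software (per the design text of the series). Which algorithm version and scaling target were used is not given in the sources used here. Signals were scaled here to a common 2%-trimmed mean, since this mean differed by up to 1.48 times between arrays. Scaled signals under 6.69, the 20th percentile, were set to that floor, log2 was taken, 64 array controls were left out, and the filter kept the 22519 probe sets whose mean log2 signal reached the 50th percentile. The brightest single-symbol probe set stood for a gene. Gene symbols came from the platform annotation: 34945 probe sets had 1 symbol, 932 had several and 9211 were not listed.

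Group means were compared in limma 3.58.1 (R 4.3.3, with Python 3.11.15 for figures), leaving 4 residual degrees of freedom; variances were moderated along an intensity trend. A call needed a two-sided p under 0.05 after Benjamini-Hochberg adjustment across all 11232 genes. Groups came from the sample titles. The p-values rest on the spread between mice within groups, pooled over the 4 groups and moderated over all genes. The test was tried on simulated data with independent normal noise, and the outcome is not reported here. Alternatives were other scalings, floors, filters, variance models and probe set rules, the replicate number as a block, and leaving out each array.

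The members and lists were chosen with earlier results of these data known. Named in full were members called in HFD or in the mean of the high-fat groups against chow, the 3 with the smallest p of each comparison with a drug, 10 set genes (Pecam1, Cdh5, Kdr, Flt1, Tie1, Tek, Vegfa, Angpt2, Nos3, Gpihbp1) and at most 4 called genes of each other list. Values of further genes (Plvap, Eng, Vegfb, Angpt1, Sox17, Fli1, Ets1, Lyl1, S1pr1, and Rgs5, Myh11, Notch3 and Kcnj8) were chosen after they were seen. Motifs were searched as exact letters in the RefSeq promoter table.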

Additional observations from a re-analysis of the deposited data

Results flagged for a closer look

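Icam2, an adhesion molecule of endothelial cells, read on opposite sides of the HFD arrays in the 2 drug groups. Its signal was 491 and 504 on the HFD+Tel arrays, both above HFD, and 415 and 444 on the HFD+Can arrays, both below HFD, against 445 and 455 on the HFD arrays. The test of HFD+Tel against HFD+Can is also the test of this difference. It gave 0.21 on the log2 scale (95% CI −0.35 to 0.77, adjusted p = 0.947) and was not called. The separation of HFD+Can from HFD was narrow, with 444.1 on HFD+Can 2 against 444.6 on HFD 1. The share of all genes with such an order of arrays was not counted. Under median centring the difference of Icam2 in HFD+Can against HFD turned its sign.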

How the results depend on the processing

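No member called in a comparison changed direction in it at any setting. Members that were not called did: under median centring the sign turned for 17 of 39 in HFD+Tel against HFD, 13 in HFD+Can against HFD and 8 in HFD+Tel against HFD+Can, against 1 (Klf2) in HFD against chow and 0 in the mean of the high-fat groups against chow. Without HFD+Tel 1 it turned for 7 in HFD+Tel against HFD. The count of members lower than chow moved with the processing in these cases, and the cause was not tested. Median centring gave 7 in HFD, 6 in HFD+Tel, 7 in HFD+Can and 11 in the mean of the high-fat groups. In HFD it gave 157 lower calls over all genes, against 331. It moved the median of all genes by more than 0.1 in several comparisons (to −0.11 in HFD against chow and 0.26 in HFD+Tel against HFD), and turned the member median in HFD+Tel against HFD to 0.22 (0.05 without HFD+Tel 1) and in HFD+Can against HFD to 0.04; the calls over all genes in HFD+Tel against chow were then 637 higher and 83 lower, against 557 and 391, and in HFD+Can against chow 489 and 83, against 503 and 237. No filter, which raises the number of genes tested to 18193, gave 1, 6, 6 and 12 in the same order. The calls over all genes were then 174, 332, 164 and 712. Variances without the intensity trend gave 7 in HFD, where 638 of all genes were called, against 909. A fit of only the groups compared gave 2 in HFD+Tel, where 198 of all genes were called, against 948. Leaving out 1 array at a time gave 1 to 15 in HFD, 8 to 16 in HFD+Tel, 1 to 21 in HFD+Can and 9 to 25 in the mean of the high-fat groups, and 0 to 0 in the 3 comparisons with a drug on one side and HFD or the other drug on the other. The 1 in HFD+Can came without HFD+Can 2, beside 3 without HFD+Can 1 and 7 without chow 1. Lyl1 was called higher in the mean of the high-fat groups without HFD+Tel 1 and at no other setting. In HFD+Can against chow the calls over all genes also fell without either HFD+Can array and without chow 1. No source says whether the replicate numbers pair the mice. Deviations of arrays with the same number correlated at −0.041 to 0.206 between groups, which cannot settle this. With the number as a replicate block the counts were 13, 14, 17 and 24, and 0 in the other 3 comparisons. The calls over all genes then rose from 909 to 1280 in HFD and from 948 to 1220 in HFD+Tel. They rose from 740 to 973 in HFD+Can and from 1514 to 1851 in the mean of the high-fat groups. In comparisons of 2 groups the members' 95% intervals reached a median of 0.41 to each side. Their spread was pooled over the 4 groups of 2 mice.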

Other observations

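Lymphoid, platelet, mesothelial and red cell markers were also read on these arrays. Of 9 tested B, T and NK cell markers, Il7r, the interleukin-7 receptor of lymphocytes, and Cd22, a B cell lectin, rose in HFD against chow and 0 fell. Il7r read 478 and 1144 on the HFD+Tel arrays, 954 and 1428 on the HFD+Can arrays and 1075 and 1131 on the HFD arrays, against 46.7 and 98.1 on the chow arrays, and the differences in HFD were 4.03 for Il7r and 2.69 for Cd22 (adjusted p = 0.00175 and 0.0106). Pf4, a chemokine of platelets that some macrophages also make, was the only one of 4 tested platelet markers called, at 0.71 (adjusted p = 0.0272). Alas2, the haem synthesis enzyme of red cell precursors and the only red cell marker tested, fell by 1.94 in HFD (adjusted p = 0.00358), with 238 and 204 on the HFD+Tel arrays, 198 and 222 on the HFD+Can arrays and 139 and 249 on the HFD arrays, against 755 and 675 on the chow arrays. None of 7 mesothelial markers was called in HFD against chow. Their median lay at −1.92 on the first HFD+Tel array, relative to the mean of chow, and between −0.57 and 0.26 on the other 7 arrays.

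The chow mice differed between themselves in the surface and capillary genes. Of 18 such members, 14 were below the chow mean on chow 2 and 4 on chow 1, with a median of −0.15 on chow 2 and 0.15 on chow 1. Over the 39 members, the log2 differences between both mice of a group had an SD of 0.34 in HFD+Tel, 0.23 in HFD+Can and 0.24 in HFD, against 0.38 in chow.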
